A study of Homo sapiens with 8 samples.

Results

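The mRNAs of 10 subunits of RNA polymerase II, POLR2A to POLR2J, were followed through a block of transcription in SW480 cells. SW480 is an established line from a human colorectal adenocarcinoma, although the series text calls it a breast cancer line. Every RefSeq transcript of these genes listed in both deposited stability tables was taken, which gave 18 transcripts of the 10 genes, among 19334 transcripts and 12480 genes with a value in both tables. The cells stably expressed a short hairpin RNA (shRNA) against RBMS1, an RNA-binding protein, or a control shRNA, and total RNA was taken at 9 h of alpha-amanitin at 10 µg/mL or at 0 h without it. There were 2 libraries in each of 4 groups (shRBMS1 at 9 h and 0 h, shControl at 9 h and 0 h), 8 in all. The sample protocols name 1 RBMS1 shRNA clone and the series text names 2. Each value is the authors' log fold change of 9 h over 0 h for 1 transcript in 1 cell population, taken as log2, with the libraries already combined, so the spread between libraries and the depth are unknown and no value or difference below carries a test or an error.

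RNA polymerase II transcribes protein-coding genes. Its largest subunit, RPB1 (encoded by POLR2A), forms the catalytic cleft together with RPB2 (POLR2B) and carries the repeated C-terminal domain (CTD) that recruits RNA-processing factors. RPB3 and RPB11 (POLR2C and POLR2J) form the platform on which the core is assembled, RPB4 and RPB7 (POLR2D and POLR2G) form a stalk near the RNA exit, and RPB9 (POLR2I) sits on the jaw and bears on accuracy. RPB5, RPB6 and RPB8 (POLR2E, POLR2F and POLR2H) also belong to RNA polymerases I and III. Alpha-amanitin binds RPB1 and blocks translocation, and in many cells the RPB1 protein is then degraded, so the drug acts on the product of one of the mRNAs measured here.

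As gene values, the mean over the transcripts in both tables, 8 of the 10 subunits lay above 0 in shRBMS1 cells, where 45.9% of all genes did, and 8 of 10 lay above 0 in shControl cells, where 45.7% of all genes did. The median log2 fold change of the 10 genes was 0.35 in shRBMS1 cells and 0.34 in shControl cells, against −0.060 and −0.065 for all genes, and became −0.019 and −0.068 when values were set relative to cytosolic ribosomal protein mRNAs. How the libraries were normalised is not stated, so whether a value above 0 means more RNA per cell or a larger share of the library cannot be told apart. In shRBMS1 cells 1 gene, POLR2A, lay at 1 or above (4.06% of all genes) and 1 gene, POLR2B, at −1 or below (9.2%). In shControl cells none of the 10 lay at 1 or above (3.49% of all genes) and none at −1 or below (9.74%). Of the 18 transcripts taken singly, 13 lay above 0 in shRBMS1 cells (47.4% of all transcripts) and 12 in shControl cells (47.7%). At 1 or above lay 2 of the 18 in shRBMS1 cells (7.13% of all transcripts) and 2 in shControl cells (6.63%), and at −1 or below 2 in shRBMS1 cells (12.2%) and 1 in shControl cells (12.2%).

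**Figure D1:**
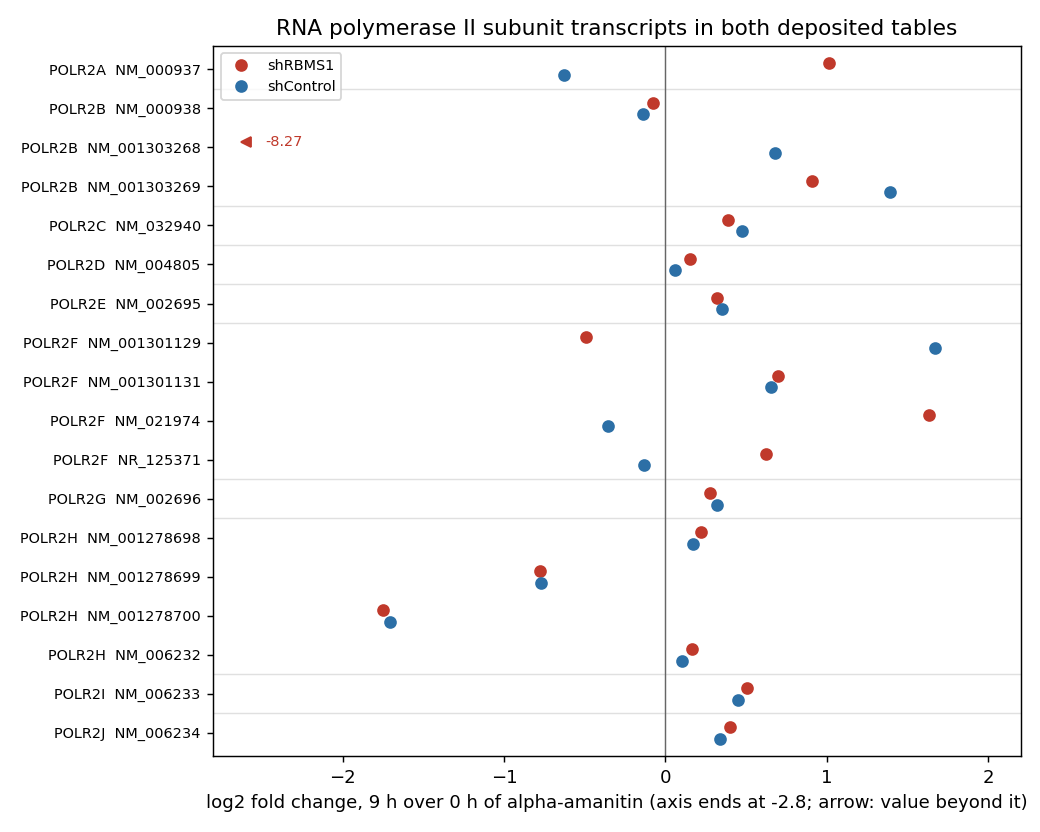
Log2 fold change of 9 h over 0 h of alpha-amanitin (x axis) for each of the 18 subunit transcripts (rows), with shRBMS1 in red and shControl in blue, from the authors' deposited tables. The points of POLR2C, D, E, G, H, I and J nearly coincide. Those of POLR2A, of 3 POLR2F transcripts and of the POLR2B transcripts at −8.27 and at 0.91 in shRBMS1 cells lie apart.

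The 6 subunits with 1 listed transcript other than POLR2A had nearly the same value in both cell populations. The assembly subunit POLR2C (NM_032940, chromosome 16, 57462679 to 57472009, GRCh38) was at 0.39 in shRBMS1 cells and 0.47 in shControl cells in the authors' deposited tables. Its partner POLR2J (NM_006234, chromosome 7, 102473128 to 102478922) was at 0.40 in shRBMS1 cells and 0.34 in shControl cells in the authors' deposited tables. POLR2J has near-identical copies, of which POLR2J4, a transcribed pseudogene, was at 0.84 in shRBMS1 cells and 0.35 in shControl cells in the authors' deposited tables, and how reads were divided among the copies is not stated. Of the 3 copies looked for (POLR2J2, POLR2J3 and POLR2J4), POLR2J4 was the one with a value in both tables.

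Of the stalk, POLR2D (NM_004805, chromosome 2, 127843553 to 127858155) was at 0.15 in shRBMS1 cells and 0.061 in shControl cells, and POLR2G (NM_002696, chromosome 11, 62761580 to 62766710) at 0.27 in shRBMS1 cells and 0.32 in shControl cells in the authors' deposited tables. POLR2D was the lowest of the 6 in both. The jaw subunit POLR2I (NM_006233, chromosome 19, 36113709 to 36114875) was at 0.51 in shRBMS1 cells and 0.45 in shControl cells in the authors' deposited tables. The shared subunit POLR2E (NM_002695, chromosome 19, 1086574 to 1095375) was at 0.32 in shRBMS1 cells and 0.35 in shControl cells in the authors' deposited tables.

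From high to low the order was POLR2I, POLR2J, POLR2C, POLR2E, POLR2G and POLR2D in shRBMS1 cells, and POLR2C, POLR2I, POLR2E, POLR2J, POLR2G and POLR2D in shControl cells. Without replicate values no neighbours in these orders can be told apart. The centred difference, shRBMS1 minus shControl after subtracting its median over all genes (−0.0168), ran from −0.068 for POLR2C to 0.11 for POLR2D over these 6 genes. It was under 0.1 in size for 5 of the 6, and for 5 of 7 when POLR2A is counted, which was set apart because of its own difference. Of the 8073 genes with 1 transcript in both tables, with none set apart, 32.7% were under 0.1. This size was chosen after the values were seen. POLR2K and POLR2L, the small zinc-binding subunits that complete the enzyme, were at 0.34 and 0.42 in shRBMS1 cells and at 0.46 and 0.45 in shControl cells in the authors' deposited tables. These values lie inside the range of the 6 genes, but the centred difference was −0.11 for POLR2K, outside the range above, and −0.017 for POLR2L.

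POLR2A (NM_000937, chromosome 17, 7484366 to 7514616) stood apart from these. In the authors' deposited tables its transcript was at 1.01 in shRBMS1 cells and at −0.63 in shControl cells. The values have opposite signs, a combination (shRBMS1 above 0, shControl below 0) found for 9.34% of the genes with 1 transcript. Among those 8073 genes POLR2A lay at the percentile 96.6 in shRBMS1 cells and at place 1613 from the lowest in shControl cells. Its centred difference was 1.66, and 101 of the 8073 genes (1.25%) reached at least that value, POLR2A included, where 3.41% lay at 1 or above. Relative to ribosomal protein mRNAs POLR2A was at 0.64 in shRBMS1 cells and −1.04 in shControl cells, so the signs were kept on that scale. No second POLR2A transcript was listed, and this difference therefore rests on 1 value in each table.

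**Figure D2:**
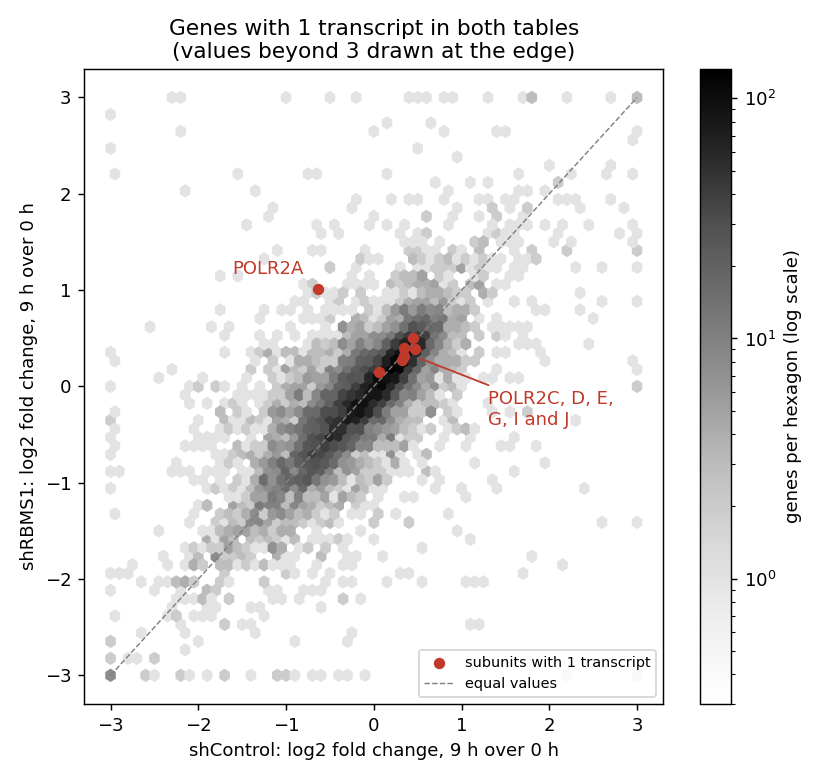
Log2 fold change of 9 h over 0 h in shRBMS1 cells (y axis) against shControl cells (x axis) for the 8073 genes with 1 transcript in both tables, as gene density, with 7 subunits in red. POLR2A at 1.01 in shRBMS1 cells and −0.63 in shControl cells lies off the diagonal on which the other 6 sit.

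The genes whose pair of values was nearest to that of POLR2A, by Euclidean distance among 6273 other protein-coding genes with 1 listed transcript, were RFX2, SPHK1 and TLCD4-RWDD3. RFX2, a transcription factor, was at 0.98 in shRBMS1 cells and −0.68 in shControl cells, and SPHK1, a sphingosine kinase, at 1.03 in shRBMS1 cells and −0.70 in shControl cells in the authors' deposited tables. TLCD4-RWDD3, a readthrough gene, was at 0.98 in shRBMS1 cells and −0.50 in shControl cells in the authors' deposited tables. Only 2 values enter this distance, so it describes position in the plot and nothing more.

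POLR2B (chromosome 4, 56978896 to 57031158), which encodes the second-largest subunit, had 3 listed transcripts that differed widely. NM_000938 was at −0.076 in shRBMS1 cells and −0.14 in shControl cells in the authors' deposited tables. NM_001303269 was at 0.91 in shRBMS1 cells and 1.39 in shControl cells in the authors' deposited tables. The third, NM_001303268, was at −8.27 in shRBMS1 cells and 0.68 in shControl cells in the authors' deposited tables. This transcript alone put the gene mean at −2.48 in shRBMS1 cells, against 0.64 in shControl cells, and its centred difference at −3.11. Without values beyond 5 in size the POLR2B mean was 0.41 in shRBMS1 cells. In the GENCODE release 29 models paired with these accessions, NM_001303268 had no exonic base of its own among the 3 transcripts and was set apart by 1 splice junction, whereas NM_000938 had 161 bases of its own and NM_001303269 had 252. The model of NM_001303268 holds coding sequence only, 3300 nt, whereas the other models also hold untranslated regions. Whether NM_001303268 has untranslated bases of its own cannot be told from this model. The coding junctions that tell 2 of them apart in these models are shown. Letters before the junction are in lower case, those after it in capitals, 5′ to 3′ on the plus strand of GRCh38.
NM_000938, chr4:56978986-56986373: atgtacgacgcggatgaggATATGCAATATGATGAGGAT
NM_001303268, chr4:56986409-56994423: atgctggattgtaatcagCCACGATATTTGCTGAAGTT
Both windows were begun at the start codon, which for NM_001303268 lies 18 bases before the junction and is also where its model begins.

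POLR2F (chromosome 22, 37953663 to 38041915), which encodes RPB6, had 4 listed transcripts, and their values differed between the cell populations in opposite directions. NM_021974 was at 1.63 in shRBMS1 cells and −0.36 in shControl cells in the authors' deposited tables. NM_001301129 was at −0.49 in shRBMS1 cells and 1.67 in shControl cells in the authors' deposited tables, the opposite order. The centred difference was 2.01 for NM_021974, where 8.96% of all transcripts lay at 1 or above, and −2.14 for NM_001301129, where 8.67% lay at −1 or below. The non-coding NR_125371 was at 0.62 in shRBMS1 cells and −0.13 in shControl cells, and NM_001301131 at 0.70 in shRBMS1 cells and 0.66 in shControl cells in the authors' deposited tables. The mean of the 4 was 0.62 in shRBMS1 cells and 0.46 in shControl cells, a centred difference of 0.17 that hides this spread. GENCODE release 29 pairs NM_021974 and NR_125371 with the same transcript model, so no base set these apart there. NM_001301131 holds 198 exonic bases that no other listed POLR2F transcript has, and 2 junctions of its own. These are shown because they set it apart from the other 3 in sequence; capitals mark the bases after the junction, 5′ to 3′ on the plus strand of GRCh38.
NM_001301131, first junction, chr22:37967151-37986173: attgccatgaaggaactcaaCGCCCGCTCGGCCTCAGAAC
NM_001301131, second junction, chr22:37986293-38041087: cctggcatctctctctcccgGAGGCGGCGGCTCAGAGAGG
The last 20 bases before either junction occur in transcripts of 1 GENCODE gene, POLR2F itself, in either orientation.

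POLR2H (chromosome 3, 184361710 to 184368591), which encodes RPB8, had isoforms that also differed from one another but had nearly the same value in both cell populations. NM_001278698 was at 0.22 in shRBMS1 cells and 0.17 in shControl cells, and NM_006232 at 0.17 in shRBMS1 cells and 0.10 in shControl cells in the authors' deposited tables. NM_001278699 was lower, at −0.77 in shRBMS1 cells and −0.77 in shControl cells in the authors' deposited tables. The lowest, NM_001278700, was at −1.75 in shRBMS1 cells and −1.71 in shControl cells in the authors' deposited tables. The 4 transcripts kept the same order in both tables, over a range of 1.97 in shRBMS1 cells and 1.88 in shControl cells, and their centred differences spanned 0.11. The span of the centred difference was 4.15 over the POLR2F and 9.01 over the POLR2B transcripts, and its median over the 4407 genes with several transcripts was 1.11. Both low transcripts have the shorter reading frame of 345 nt, which starts downstream of the start codon of NM_006232 (453 nt) and NM_001278698 (528 nt), in the GENCODE models. NM_001278698 also uses a different start of the last exon, and its coding junction there is shown with the bases after it in capitals (plus strand, GRCh38).
NM_001278698, chr3:184366781-184368132: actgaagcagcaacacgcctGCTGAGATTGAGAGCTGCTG
The gene mean of −0.53 in shRBMS1 cells and −0.55 in shControl cells comes from the 2 low transcripts. NM_001278700 has no exonic base of its own among the listed POLR2H transcripts and NM_001278699 has 9. Each of these 2 also has 1 splice junction of its own in the GENCODE models.

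The subunit mRNAs differ greatly in coding length, and the deposited values varied with coding length over all genes. Among genes with 1 transcript, those of up to 600 nt had a median log2 fold change of 0.16 in shRBMS1 cells and 0.20 in shControl cells (1023 genes). Those over 4800 nt had a median of −0.17 in shRBMS1 cells and −0.42 in shControl cells (326 genes). POLR2D, POLR2G, POLR2I and POLR2J fall in the shortest class, of which 59.6% lay above 0 in shRBMS1 cells and 62.6% in shControl cells. POLR2I lay above the upper quartile of this class (0.40 in shRBMS1 cells, 0.43 in shControl cells), POLR2G and POLR2J lay between its median and upper quartile, and POLR2D lay below its median, in both populations. POLR2C and POLR2E fall in the class of 600 to 1200 nt, with medians of −0.052 in shRBMS1 cells and −0.017 in shControl cells (2017 genes), and both lay above its upper quartile of 0.27 in shRBMS1 cells and 0.29 in shControl cells. POLR2A, placed by the longest open reading frame of its longest GENCODE transcript, falls in the class over 4800 nt. In that class 5 of the 326 genes, POLR2A included, had a value at least as high in shRBMS1 cells, 107 had a value at most as high in shControl cells, and 4 had a centred difference at least as high. Over the 7 subunits with 1 transcript, Spearman's rho of coding length with the value was 0.14 in shRBMS1 cells and −0.14 in shControl cells, a description across genes that share their libraries. What part coding length has in the values was not tested.

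**Figure D3:**
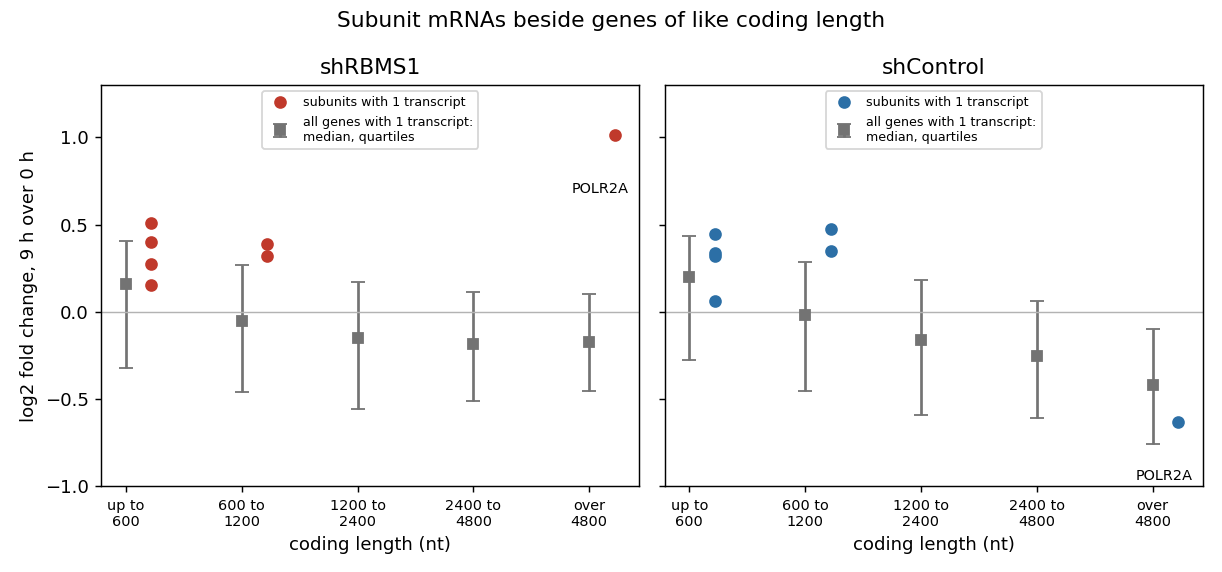
Log2 fold change of 9 h over 0 h (y axis) by class of coding length (x axis, nt) in shRBMS1 cells (left) and shControl cells (right), with grey squares and bars for the median and quartiles of all genes with 1 transcript and coloured points for 7 subunits. POLR2A lies above the quartiles of the class over 4800 nt in shRBMS1 cells at 1.01 and inside them in shControl cells at −0.63.

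The 3′ untranslated regions (3′UTRs) were read for words that proteins of mRNA turnover are known to bind. RBMS-family proteins favour AU-rich words such as AUAUA. The core of AU-rich elements that several decay factors bind is AUUUA. Pumilio proteins bind UGUANAUA. For each gene only the longest 3′UTR among its listed transcripts was read. On the sense strand AUAUA occurred in the 3′UTRs read for 2 of the 10 subunits, POLR2B and POLR2D. It occurred in 58.6% of the 11051 genes with a 3′UTR. POLR2A, in a 3′UTR of 409 nt, held no AUAUA. It held no AUUUA either, and UGUANAUA occurred 1 time. Of 970 genes with a 3′UTR within 20% of that length, the share with AUAUA was 32.3%, the share holding AUUUA was 46.8%, and UGUANAUA was in 8.35%. The AUAUA matches of POLR2B overlap each other, near the end of a 3′UTR of 180 nt that is 74.4% A and U. That 3′UTR belongs to NM_000938, whose centred difference was 0.080. The model of NM_001303268, the transcript at −8.27 in shRBMS1 cells, holds no 3′UTR. Of 508 genes of like 3′UTR length 16.9% held the word, and of 855 genes of like length to POLR2D, whose 3′UTR has 4556 nt, 96.3% did. One window per gene is printed with AUAUA in capitals, since this word is the one tied to RBMS proteins.
POLR2B, 144 nt after the stop codon: ucuucuguaaAUAUAuaauaaauuu
POLR2D, 1371 nt after the stop codon: accaaagcccAUAUAaggagcggag
POLR2D holds AUAUA 4 times, of which the matches at 2274 and 2276 nt after the stop codon overlap, and AUUUA 9 times, with a centred difference of 0.11. POLR2C holds AUUUA 2 times and POLR2H 1 time, a word found in 70.0% of all genes with a 3′UTR. Among genes of like 3′UTR length AUUUA was in 97.8% for POLR2D, 73.4% for POLR2C and 39.5% for POLR2H. POLR2F and POLR2J each hold UGUANAUA 1 time and POLR2B holds it 2 times, a word found in 27.4% of all genes. Among genes of like 3′UTR length it was in 29.4% for POLR2F, 11.7% for POLR2J and 5.51% for POLR2B. The 3′UTR read for POLR2F is that of the model shared by NM_021974 and NR_125371. No word occurred in the 3′UTRs of POLR2E, POLR2G or POLR2I. Among genes of like 3′UTR length, AUAUA was in 80.9% for POLR2E, 18.0% for POLR2G and 6.09% for POLR2I. The shares with AUUUA were 91.9%, 25.4% and 5.22%, and those with UGUANAUA 36.5%, 5.99% and 3.48%, in the same order.

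Other genes of the transcription machinery were set beside the subunits by lists. The 8 subunits of RNA polymerase I had a median of −0.25 in shRBMS1 cells and 0.034 in shControl cells, with 1 and 4 of them above 0. POLR1A, its largest subunit, was at −0.27 in shRBMS1 cells and −0.53 in shControl cells in the authors' deposited tables, and POLR1H was at 0.67 and 0.63 there as a mean of 2 transcripts. The 11 subunits of RNA polymerase III had a median of −0.37 in shRBMS1 cells and −0.21 in shControl cells, with 4 above 0 in each. POLR3B, its second-largest subunit, was at −0.95 in shRBMS1 cells and −0.81 in shControl cells, and POLR3K at 0.28 and 0.39, in the authors' deposited tables. Another POLR3B transcript, without a value in shRBMS1 cells, was at −1.91 in shControl cells. POLR3E was at −0.45 in shRBMS1 cells and −1.06 in shControl cells as the transcript in both of the authors' deposited tables. Its transcripts without a value in both were at −7.75 in shRBMS1 cells and at 1.37 in shControl cells. Genes for polymerase assembly and import had medians of 0.20 in shRBMS1 cells and 0.30 in shControl cells over 15 genes, with 12 and 10 above 0. GPN1, a GTPase for nuclear import of the polymerase, had the highest mean of them, at 1.93 in shRBMS1 cells and 0.65 in shControl cells over 3 transcripts of the authors' deposited tables, and its centred difference of 1.29 was the only one of the 15 at 1 or above (4.87% of all genes). Its transcripts differed in order. In the authors' deposited tables the non-coding NR_026735 was at 3.93 in shRBMS1 cells and 1.27 in shControl cells. The coding NM_001145048 was at 1.73 in shRBMS1 cells and 0.40 in shControl cells in the authors' deposited tables. The coding NM_007266 was at 0.11 in shRBMS1 cells and 0.28 in shControl cells in the authors' deposited tables.

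CTD phosphatases and CTD-binding proteins, which act on the tail of the POLR2A product, had medians of −0.29 in shRBMS1 cells and −0.42 in shControl cells over 11 genes, with 3 and 4 above 0. The CTD-binding protein SCAF8 was at −1.06 in shRBMS1 cells and −1.30 in shControl cells as a mean over 3 transcripts of the authors' deposited tables. CTDSPL, a CTD phosphatase of the small family, was at −5.22 in shRBMS1 cells and −0.71 in shControl cells as a mean over the authors' deposited tables, in which 1 of its 2 transcripts was at −8.77 in shRBMS1 cells. Genes of POLR2A ubiquitination had medians of 0.050 in shRBMS1 cells and −0.035 in shControl cells over 15 genes, and elongation factors 0.11 in shRBMS1 cells and 0.091 in shControl cells over 20 genes, with 12 of these above 0 in each. None of these 15 and 20 genes had a centred difference at 1 or above or at −1 or below (4.16% of all genes at −1 or below). The ubiquitin ligase WWP2 was at −1.17 in shRBMS1 cells and −0.47 in shControl cells as a mean over 3 transcripts of the authors' deposited tables. These transcripts differed in sign, from −2.56 to 0.10 in shRBMS1 cells and from −1.20 to 0.58 in shControl cells. The elongation factor IWS1, with 1 transcript, was at −1.28 in shRBMS1 cells and −1.12 in shControl cells in the authors' deposited tables.

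**Figure D4:**
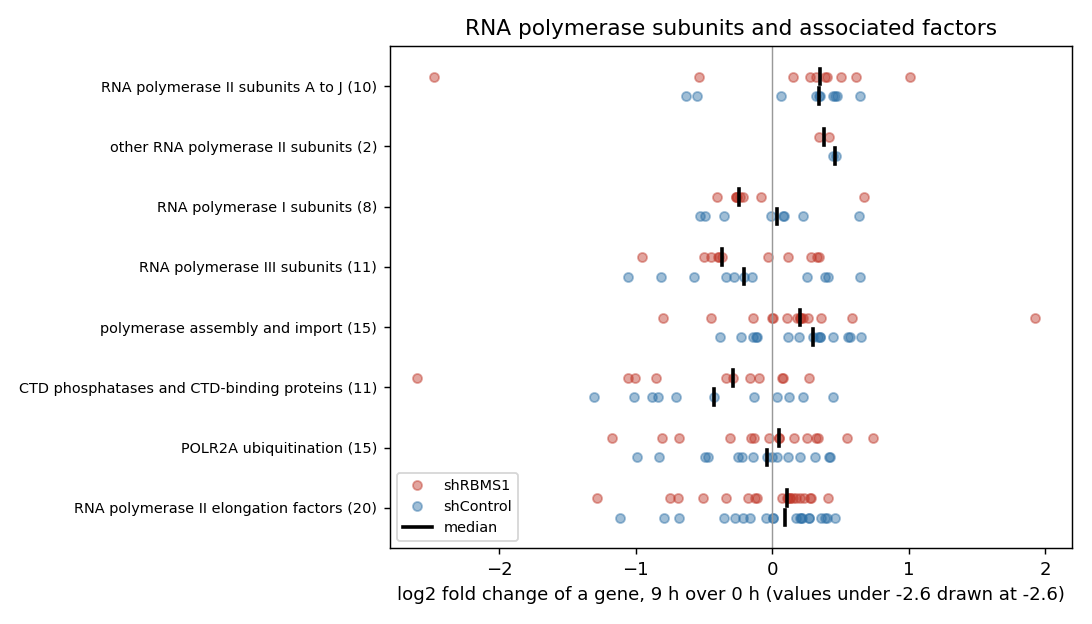
Log2 fold change of 9 h over 0 h (x axis) of each gene (points) in lists of polymerase subunits and associated factors (rows, genes in brackets), with shRBMS1 in red above shControl in blue and black bars for medians. The medians of the 10 subunits, 0.35 in shRBMS1 cells and 0.34 in shControl cells, turn to −0.019 and −0.068 relative to ribosomal protein mRNAs.

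The sign of the tables was read from short-lived mRNAs: MYC was at −1.38 in shRBMS1 cells and −1.44 in shControl cells, FOS at −1.24 and −1.61, and JUN at −0.81 and −1.01, in the authors' deposited tables. Of 10 colon epithelial marker genes 6 had transcripts in the shRBMS1 table and 8 in the shControl table, KRT8 and EPCAM among them. VIL1 and KRT20 were listed for shControl cells only, and LGALS4 and GPA33 for neither population. Of 8 markers of other cell types 3 were listed in each table (CD68, LYZ and ACTA2). A listing gives no level, so these tables hold no expression check of the cell type or of the knockdown.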

How the data were processed

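The authors deposited 2 tables, 1 per shRNA, with a log fold change per RefSeq transcript, per the file headers (RefSeq, logFC). Per the submitters' processing notes, STAR 2.5, Cufflinks and Cuffdiff were used with hg38, in roles not stated there. The deposited values were taken as log2 because Cuffdiff writes that base, and the direction from MYC, FOS and JUN; the filters and the normalisation of libraries are not stated. Whether the paired libraries were separate cultures is not stated.

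Of 22468 accessions, 22132 took their symbol from RefSeq's gene list (GRCh38.p14) and 205 from GENCODE release 29, while 131 found none. Gene values are means over the transcripts that both tables list. Differences were centred on the median gene. Values of 1 or more in size (2-fold) were counted without a test. The depth is unknown. Sequences and coding lengths came from GENCODE release 29, with the longest 3′UTR of each gene, of at least 20 nt. POLR2A's accession pairs there with a transcript outside the primary assembly, so the longest POLR2A transcript with its longest open reading frame was used. Genes named were the members, the other subunits and, in each list, the 2 highest and 2 lowest by the mean of both tables, of which the text gives some. Members and lists were chosen with earlier results of these data known. A junction sequence of 1 POLR2F transcript is not reported here. Gene averaging and centring were tested on simulated data. Python 3.11.15, pandas 2.3.3 and numpy 2.4.6 were used.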

Additional observations from a re-analysis of the deposited data

How the results depend on the processing

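No paired analysis was possible because the deposited values combine the libraries; leaving out a replicate was not run for the same reason. On the scale of ribosomal protein mRNAs the 10 subunits had a median of −0.019 in shRBMS1 cells and −0.068 in shControl cells, 5 and 4 genes lay above 0, 0 lay at 1 or above in shRBMS1 cells, and 1 lay at −1 or below in shControl cells. Relative to the median of all genes the medians were 0.41 in both. Taking for each gene its least changing transcript, the shControl median was 0.21 and the median centred difference 0.077, and with medians over transcripts 0.33 and 0.062. With coding accessions the median centred difference was 0.0096. With POLR2K and POLR2L the medians were 0.37 in shRBMS1 cells, 0.40 in shControl cells and 0.0098 for the difference, and without POLR2J 0.32 in shRBMS1 cells and 0.033 for the difference. Without values beyond 5 in size the shRBMS1 median was 0.40. In the alternatives added after seeing the data, members with 1 transcript had medians of 0.39 in shRBMS1 cells and 0.077 for the difference, and without POLR2A these were 0.32 and 0.033, with 0 genes at 1 or above in shRBMS1 cells or for the difference. POLR2B was no longer at −1 or below (0 genes, in shRBMS1 cells and for the difference) with the least changing transcript, with medians over transcripts, or without values beyond 5 in size. The same count of 0 among members with 1 transcript follows from leaving POLR2B out. Its centred difference was then 0.077 with the least changing transcript and its shRBMS1 value 0.41 without values beyond 5, both of opposite sign. Some main values under 1 in size changed sign too. With the least changing transcript POLR2H was at 0.17 in shRBMS1 cells and 0.10 in shControl cells. In shControl cells POLR2F was then at −0.13 and POLR2B at −0.14. With coding accessions the centred difference of POLR2F was −0.025. Which genes lay above 0 thus depended on the transcripts taken. The other 99 medians and counts stayed within 0.005 or 1.5 times. No interval that needs depth can be given, and a transcript with few reads cannot be recognised.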
